A study of Mus musculus with 8 samples.

Results

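The cell-cycle inhibitors Cdkn1a, Cdkn1b, Cdkn2a, Cdkn2b, Cdkn2c and Cdkn2d, together with the p53 and RB genes Trp53, Mdm2, Ccng1 and Rb1, were followed in clonally expanded CD8 T cells of old mice and in the other CD8 memory cells of the same animals. All probe sets carrying only the symbol of one of these genes were taken, which gave 16 of the 45101 probe sets on the array, for 9 of the 10 genes. Trp53 had no probe set under its symbol in the platform annotation and was not analysed here. Of the 16 probe sets, 11, for 8 genes, were bright enough to be tested among 22518. The other 5 were below the filter, including the only probe set of Cdkn2a.

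In old mice a few CD8 T cells can each give rise to a large clone, sharing a T cell receptor, that fills much of the CD8 memory compartment. The study sorted 1 expansion from each of 4 female mice and paired it with the remaining, polyclonal CD8 memory cells of that mouse, which asks how an expansion differs from memory cells of the same age and environment. All cells came from spleen and lymph nodes, carried CD8 and CD122, the shared interleukin 2 and 15 receptor chain, and lacked MHC class II, and were frozen without culture. The age was 20 months for mice 1 and 2 and 23 months for mice 3 and 4, and the strain was C57BL/10SnJ except in mouse 4, a B10.BR animal. The expansions were gated on the receptor chain Vb3 in mouse 1, Vb8.1/8.2 in mouse 2, Vb8.3 in mouse 3 and Vb14 in mouse 4, and each partner sample lacked that chain. Expansion 1 is labelled high for integrin alpha4 (an adhesion receptor chain) and expansions 2, 3 and 4 low, so the alpha4-high subclass is 1 clone in 1 mouse. Every expansion is a single gated population, and the comparison holds no young animals.

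Expansions 1 to 4 were sorted to a purity of 91, 95, 96 and 98%, their polyclonal partners to 97, 75, 66 and 97%. RNA was amplified in a double procedure before hybridisation, and values are MAS5 signals, a linear brightness with no unit, in which each array has the same 2% trimmed mean. The median signal of an array was between 46.5 and 75.1, and between 22050 and 30498 probe sets lay above the array's background level of 33.7 to 61.9, the 95th percentile of 27 bacterial control probe sets. Precision is limited by having 8 arrays. Scanner records set the array of expansion 4 apart from the others, its partner's included. In mouse 4, clone and array therefore cannot be told apart. All 7 CD8 T cell marker genes examined were above background on all 8 arrays. Summed signals of 9 myeloid markers were 1991 to 8766 in the expansions and 1791 to 6270 in the polyclonal samples, higher in the expansion of 4 of 4 pairs, with 5 to 8 of the 9 above background on an array. A few bright genes led these sums, and single markers differed in direction. In expansion 3 Lyz2 (426 against 461) and S100a8 (475 against 633) were lower than in the partner, and Csf1r (705 against 401) was higher. In expansion 4 Lyz2 was lower (564 against 936) and S100a8 higher (6177 against 3795). For 4 NK cell markers the sums were 340 to 5849 and 2189 to 32624, higher in the expansion of 1 pair, and 2 or 3 of the 4 were above background. The sums of 6 B cell markers were 2976 to 3877 and 2035 to 4429, those of 5 CD4 and regulatory T cell markers 303 to 437 and 238 to 567, and those of 5 erythroid and platelet markers 194 to 620 and 204 to 435. Among the NK markers, Ncr1 read 32.4 at most, below background on every array, whereas Klra8 read 15079 and 21818 in polyclonal samples 2 and 4 and 1103 at most in the expansions, and Klre1 reached 10649 in polyclonal sample 4.

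A cell enters S phase when cyclin-dependent kinases inactivate RB, the Rb1 protein, which otherwise holds E2F transcription factors in check. The CIP/KIP inhibitors p21 (Cdkn1a) and p27 (Cdkn1b) bind several cyclin-kinase complexes, whereas the INK4 inhibitors p16Ink4a (Cdkn2a), p15 (Cdkn2b), p18 (Cdkn2c) and p19Ink4d (Cdkn2d) bind CDK4 and CDK6. The p53 protein induces Cdkn1a, Ccng1 and its own ubiquitin ligase Mdm2, and Arf, the other product of Cdkn2a, blocks Mdm2. In T cells p27 is a known brake on entry into the cycle, and p16Ink4a is a widely used mark of cell ageing.

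The RefSeq start regions of 6 of these transcripts are printed because Cdkn1a, Ccng1 and Mdm2 are textbook p53 targets with a tested probe set and because the single Cdkn2a probe set stands for products of 2 starts. Each is the 250 bases before an annotated start on GRCm38.p6, written 5′ to 3′ on the strand of the gene, and 12 such windows matched 9 of the 10 genes. Capitals mark matches, on either strand, to the E2F site (TTTCCCGC, TTTCGCGC, TTTGCCGC or TTTGGCGC), the GC box GGGCGG, the CCAAT box, the TATA box TATAAA, the forkhead motif GTAAACA or the p53 decamer, the consensus that occurs as a pair in a full p53 element. The motifs marked in these 6 windows do not overlap.
Cdkn1a upstream start, chr17:29090729-29090978, plus strand: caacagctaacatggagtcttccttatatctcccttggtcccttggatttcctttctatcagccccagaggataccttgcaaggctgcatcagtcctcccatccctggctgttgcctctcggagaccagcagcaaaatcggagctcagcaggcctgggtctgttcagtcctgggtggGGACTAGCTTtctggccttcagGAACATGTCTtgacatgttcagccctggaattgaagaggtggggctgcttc
Cdkn1a downstream start, chr17:29093519-29093768, plus strand: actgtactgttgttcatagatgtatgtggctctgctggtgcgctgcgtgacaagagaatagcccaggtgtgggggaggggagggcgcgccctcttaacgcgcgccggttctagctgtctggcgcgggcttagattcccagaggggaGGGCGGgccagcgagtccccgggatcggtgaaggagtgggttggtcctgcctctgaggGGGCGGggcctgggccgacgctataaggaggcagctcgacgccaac
Ccng1, chr11:40755287-40755536, minus strand: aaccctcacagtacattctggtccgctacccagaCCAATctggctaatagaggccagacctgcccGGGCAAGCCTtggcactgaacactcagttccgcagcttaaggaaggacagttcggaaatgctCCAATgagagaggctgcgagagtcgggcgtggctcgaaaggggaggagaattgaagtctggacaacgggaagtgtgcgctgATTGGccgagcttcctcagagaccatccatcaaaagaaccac
Mdm2, chr10:117710759-117711008, minus strand: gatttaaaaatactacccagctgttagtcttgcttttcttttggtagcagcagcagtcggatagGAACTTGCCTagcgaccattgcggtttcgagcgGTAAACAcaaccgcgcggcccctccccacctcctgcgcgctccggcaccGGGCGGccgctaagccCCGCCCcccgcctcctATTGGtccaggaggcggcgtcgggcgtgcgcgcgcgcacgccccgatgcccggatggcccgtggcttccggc
Cdkn2a Arf start, chr4:89294620-89294869, minus strand: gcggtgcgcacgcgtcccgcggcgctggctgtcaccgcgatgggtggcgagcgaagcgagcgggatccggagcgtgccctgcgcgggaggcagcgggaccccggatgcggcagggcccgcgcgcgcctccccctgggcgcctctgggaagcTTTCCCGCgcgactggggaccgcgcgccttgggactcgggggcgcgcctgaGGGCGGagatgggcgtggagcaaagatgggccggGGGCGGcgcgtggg
Cdkn2a p16Ink4a start, chr4:89282193-89282442, minus strand: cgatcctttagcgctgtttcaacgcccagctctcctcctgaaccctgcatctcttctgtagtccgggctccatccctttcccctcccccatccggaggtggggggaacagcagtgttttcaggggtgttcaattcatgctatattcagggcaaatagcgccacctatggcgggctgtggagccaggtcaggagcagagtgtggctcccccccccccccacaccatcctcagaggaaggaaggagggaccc

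The upstream Cdkn1a window held 2 p53 decamers, and the downstream one held 2 GC boxes and none. Ccng1 held 1 decamer beside 3 CCAAT boxes, and Mdm2 held 1 decamer, 2 GC boxes, 1 CCAAT box and 1 forkhead motif. The Arf window of Cdkn2a held 1 E2F site and 2 GC boxes, and the p16Ink4a window held none of the 6 motifs. Among 32851 mouse windows of this length, the p53 decamer was present in 7.13%, the GC box in 32.7%, the CCAAT box in 33.8%, TATAAA in 12.4%, the forkhead motif in 3.17% and the E2F site in 1.86%. A match describes these letters only, and binding was not measured in these samples.

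The comparisons over all pairs and over the alpha4-low pairs share 3 pairs, and their values are given side by side. In all 3 comparisons none of the 11 tested probe sets passed a Benjamini-Hochberg adjusted p of 0.05 over all 22518. The background for that count is 0% of probe sets called between expansions and polyclonal cells over all pairs, 0.0533% (12 probe sets) in the alpha4-low pairs, and 0.0533% (12 probe sets) for the difference between the subclasses. At an unadjusted limma p under 0.05, the members gave 1 probe set over all pairs, that of Cdkn1a, where 3.25% of all tested probe sets did so, none in the alpha4-low pairs, where 5.11% did, and none for the difference, where 6.57% did. Counted by pairs, 3 of the 11 lay higher in the expansion of all 4 mice (1 probe set each of Cdkn1a, Ccng1 and Rb1), or 27.3%, against 4.79% of all tested probe sets. With the 3 alpha4-low pairs alone this was 4 of 11, or 36.4%, against 9.99%, the additional one being another Ccng1 probe set. No member lay lower in every pair, where 6.05% of all tested probe sets did over 4 pairs and 15% over the alpha4-low pairs. Some of these probe sets share a gene and all share the 8 arrays, so they are not independent of each other. The members were also chosen with earlier results of these data known, so these shares are descriptions and no test of enrichment. The median difference of the 11, on the log2(signal + 5) scale, was 0.26 over all pairs against -0.04 for all tested probe sets, and 0.13 against -0.07 in the alpha4-low pairs. Within mice 1 to 4 the medians of the members were 0.23, 0.36, 0.26 and 0.13, against 0.06, -0.22, 0.01 and 0.0047 for the whole table.

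**Figure D1:**
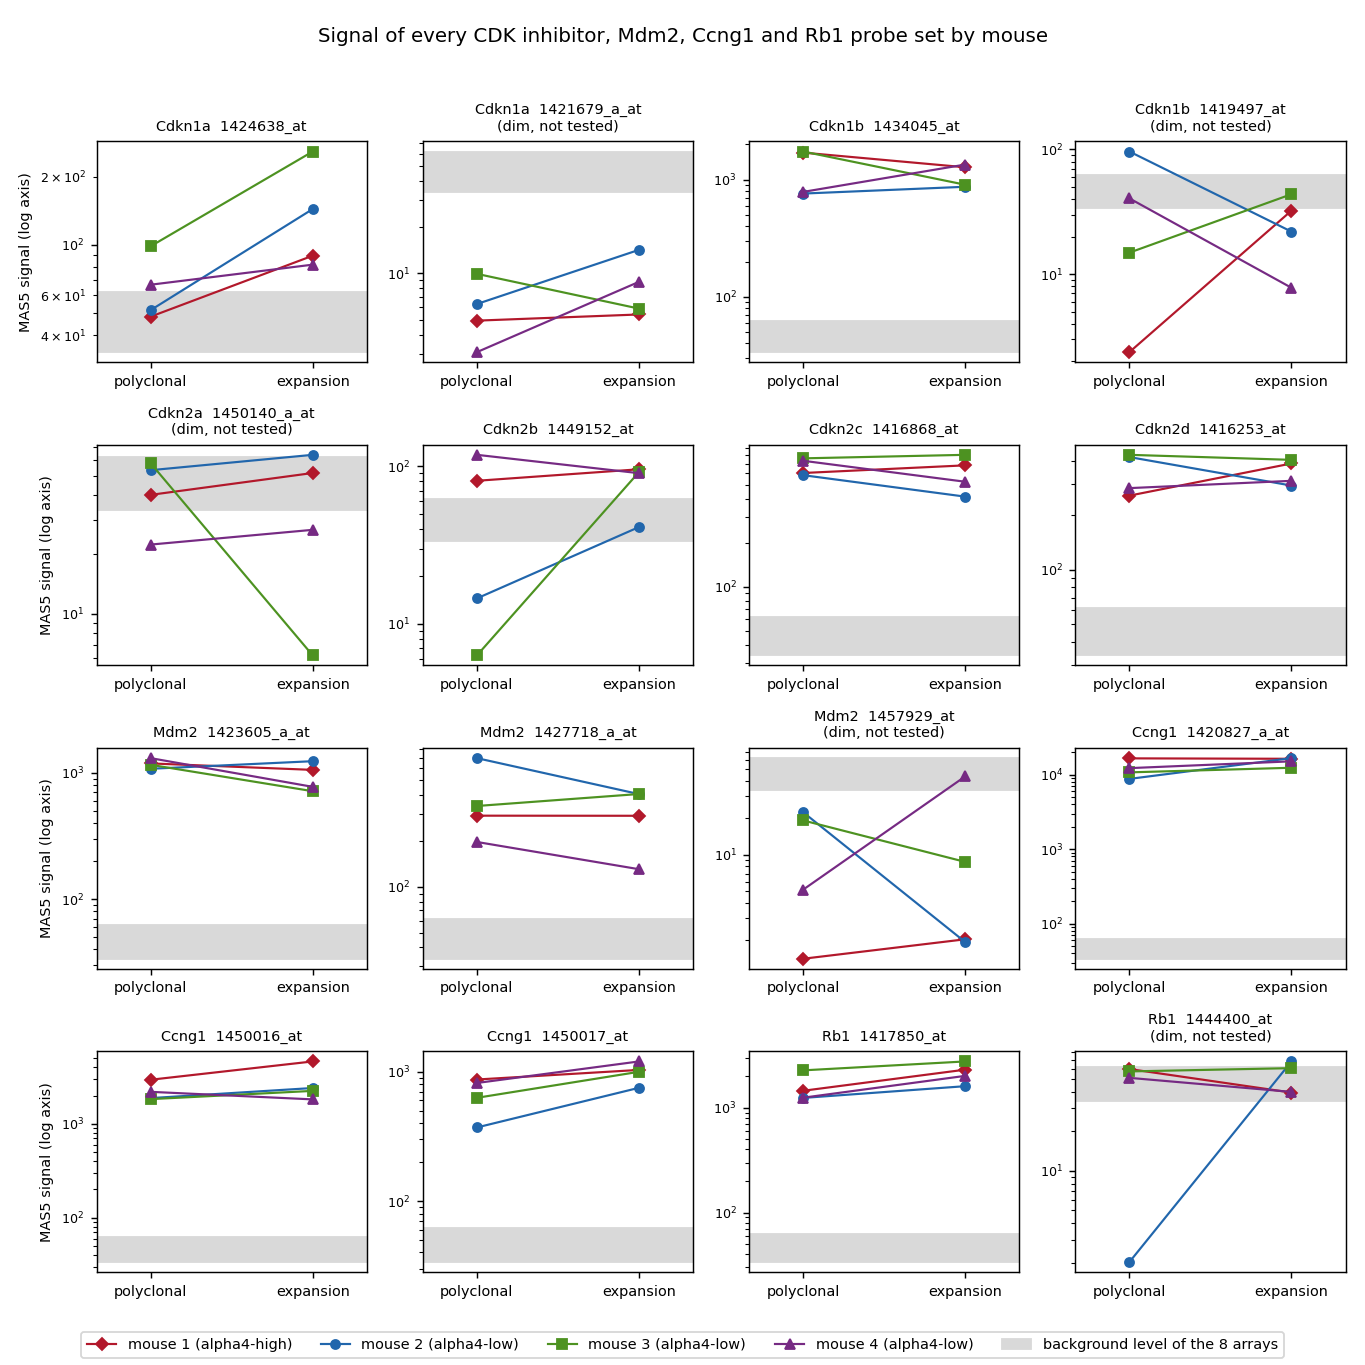
MAS5 signal (log axis, no unit) of the 16 probe sets in the 8 samples, with expansion and polyclonal cells of each mouse joined by a line and the range of the arrays' background levels, 33.7 to 61.9, shown as a band. Cdkn1a 1424638_at, Ccng1 1450017_at and Rb1 1417850_at lie higher in the expansion of every mouse, and the values of the expansions and polyclonal samples overlap for all 16 probe sets.

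The p21 gene Cdkn1a, the best known transcriptional target of p53, lay higher in the expansion of every mouse. Its probe set 1424638_at read 89.7 in expansion 1 and 48.3 in polyclonal sample 1, 144 and 51.6 in mouse 2, 258 and 98.7 in mouse 3, and 81.9 and 66.8 in mouse 4. All 8 values were above their array's background, but those of polyclonal samples 1 and 2 only narrowly, and the ranges of the groups overlap because expansions 1 and 4 fell under polyclonal sample 3. Ordered by level, the alpha4-low expansions stood at 161 ± 89.4 (SD, n = 3), expansion 1 at 89.7 and the polyclonal samples at 66.4 ± 23.0 (SD, n = 4), and expansion 1 lay within the range of both other groups. In linear terms the expansion had 1.86, 2.79, 2.61 and 1.23 times the signal of its partner in mice 1 to 4. The mean difference over all pairs was 0.96 on the log2 scale (SE 0.42, 95% interval 0.03 to 1.89), with a limma unadjusted p of 0.0435 and an adjusted p of 0.9998. For the alpha4-low pairs it was 1.0 (-0.10 to 2.11, adjusted p = 0.966). The larger ratios were those of mice 2 and 3, whose polyclonal samples had the lower sort purities, 75 and 66%. Among the alpha4-low mice only mouse 4 had both samples at like purity, 98 and 97%. Alpha4-low estimates with sort purity as a covariate therefore rest mainly on that mouse. With sort purity as a covariate the difference was 0.69 over all pairs (limma adjusted p = 0.9999) and 0.33 over the alpha4-low pairs (limma adjusted p = 1), and with mice 1 and 4 alone, a setting chosen after seeing the data, it was 0.55 (limma adjusted p = 0.912). In cells measured in bulk, fewer cells that carry a transcript and less of it per cell cannot be told apart. The other Cdkn1a probe set, 1421679_a_at, was below background on all 8 arrays, at 3.07 to 14.2, and was not tested.

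Cdkn1b, whose product p27 holds resting T cells out of the cycle, was bright in every sample and had no common direction. The signals of 1434045_at were 1274 in expansion 1 and 1698 in its partner, 868 and 760 in mouse 2, 904 and 1735 in mouse 3, and 1343 and 785 in mouse 4. The expansion was lower in mice 1 and 3 and higher in mice 2 and 4. The mean difference was -0.10 on the log2 scale over all pairs (95% interval -0.90 to 0.70) and 0.0084 over the alpha4-low pairs (-0.97 to 0.98), with limma adjusted p-values of 0.9998 in both. That interval still leaves room for a change of almost 1 on the log2 scale either way. A second probe set, 1419497_at, was above background in 1 of 8 samples and was not tested.

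Of the INK4 genes, Cdkn2a was close to the background of the arrays. Its 1 probe set, 1450140_a_at, read 51.6 and 40.0 in expansion and polyclonal sample of mouse 1, 63.8 and 53.3 in mouse 2, 6.17 and 57.8 in mouse 3, and 26.6 and 22.4 in mouse 4. Only 4 of the 8 values, from 2 expansions and 2 polyclonal samples, were above background, so neither group had a measurable common level, and the probe set did not enter the tests. The file gives no way to assign the signal to p16Ink4a or to Arf.

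Cdkn2b, which encodes p15 and neighbours Cdkn2a, was the most variable of the tested genes, with an SD of 1.27 on the log2 scale over the 8 arrays. Its signals were 95.6 in expansion 1 and 80.8 in polyclonal sample 1, 41.1 and 14.5 in mouse 2, 91.8 and 6.28 in mouse 3, and 90.3 and 118 in mouse 4. It was above background in 3 expansions and 2 polyclonal samples. Both values of mouse 2 and the polyclonal value of mouse 3 were below background, so the pairs with the largest differences, 1.24 and 3.10 on the log2 scale, rest on unmeasured partners, which are also the 2 polyclonal samples of lowest sort purity. The mean difference was 1.05 over all pairs (95% interval -0.37 to 2.47, limma adjusted p = 0.9998) and 1.32 over the alpha4-low pairs (-0.27 to 2.92, limma adjusted p = 0.967). With sort purity as a covariate the values were 0.12 (limma adjusted p = 0.9999) and -0.63 (limma adjusted p = 1). Without mouse 3 they were 0.37 and 0.44, and without mouse 4 they were 1.52 and 2.17, with limma adjusted p-values from 0.758 to 0.9999.

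The p18 and p19Ink4d genes Cdkn2c and Cdkn2d were above background in every sample, within a narrower range. Cdkn2c 1416868_at read 681 and 603 in mouse 1, 415 and 583 in mouse 2, 804 and 760 in mouse 3, and 525 and 732 in mouse 4, expansion first. Cdkn2d 1416253_at read 387 and 257, 292 and 420, 405 and 432, and 310 and 283 in the same order. Both genes were higher in the expansion of 2 mice and lower in that of the other two. Their mean differences over all pairs were -0.18 (95% interval -0.89 to 0.54) and 0.03 (-0.72 to 0.77), with limma adjusted p-values of 0.9998.

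**Figure D2:**
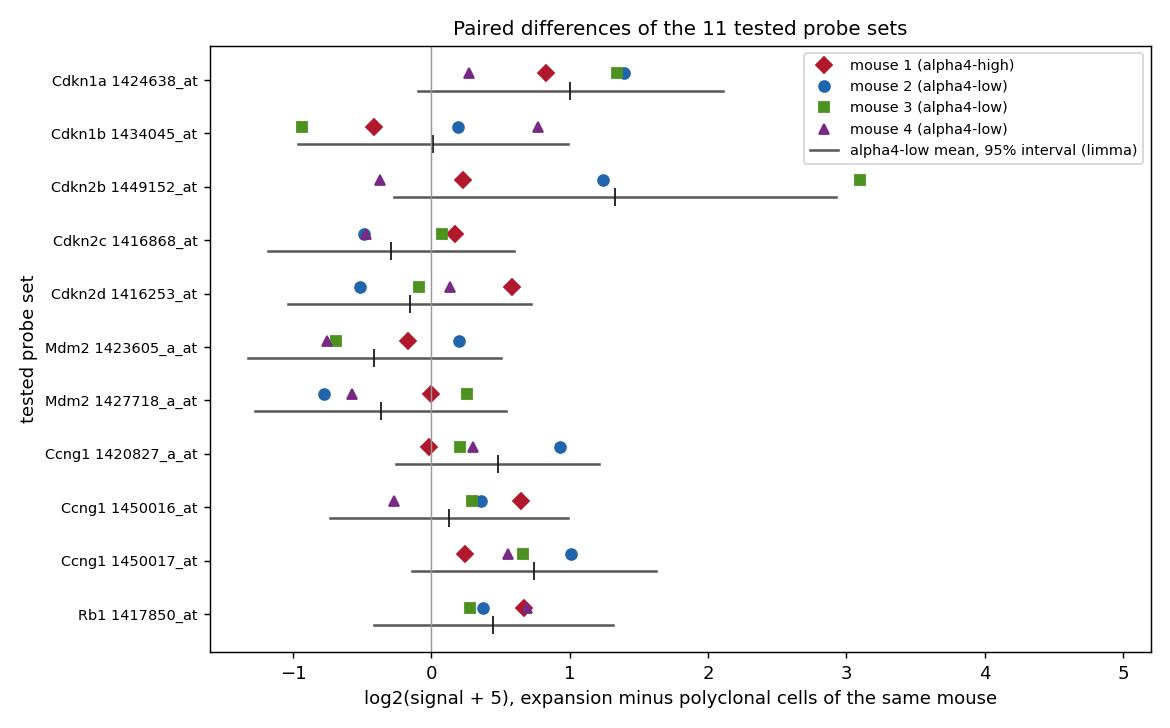
Difference of log2(signal + 5) between expansion and polyclonal cells for the 11 tested probe sets, with 1 symbol per mouse; the grey bar is the 95% limma interval of the mean over the 3 alpha4-low pairs and the tick its mean. Every interval includes 0, and the 4 symbols lie right of 0 for Cdkn1a 1424638_at, Ccng1 1450017_at and Rb1 1417850_at.

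The 2 other p53 targets among the members had means of opposite sign over all pairs, but every 95% interval included 0. Ccng1, which encodes cyclin G1, had 3 tested probe sets. With 1450017_at the expansion and its partner read 1033 and 871 in mouse 1, 751 and 371 in mouse 2, 999 and 629 in mouse 3, and 1202 and 819 in mouse 4, higher in the expansion each time although the ranges overlap. The mean difference was 0.62 on the log2 scale over all pairs (95% interval -0.09 to 1.32, limma adjusted p = 0.9998) and 0.74 over the alpha4-low pairs (-0.14 to 1.63, limma adjusted p = 0.967). The brightest Ccng1 probe set, 1420827_a_at, read 16397 and 16613, 16730 and 8800, 12420 and 10772, and 15151 and 12278 in mice 1 to 4. It was thus higher in the 3 alpha4-low expansions, by 0.93, 0.21 and 0.30, and level with its partner in the alpha4-high one, at -0.02. The remaining probe set, 1450016_at, disagreed with both in mouse 4, where the expansion was lower by value (1825 against 2197), and its differences in mice 1 to 3 were 0.65, 0.36 and 0.29. The means of the last 2 probe sets over all pairs were 0.35 (95% interval -0.22 to 0.93) and 0.26 (-0.42 to 0.93).

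Mdm2, the ubiquitin ligase that removes p53, had 2 tested probe sets, both with a mean below 0. The signals of 1423605_a_at were 1055 and 1187 in mouse 1, 1236 and 1076 in mouse 2, 715 and 1157 in mouse 3, and 774 and 1307 in mouse 4. Those of 1427718_a_at were 293 and 294, 407 and 701, 408 and 340, and 131 and 197. They took opposite directions in mice 2 and 3, and in mouse 4 both were lower in the expansion, by -0.75 and -0.58 on the log2 scale. Over all pairs the means were -0.35 (95% interval -1.08 to 0.37) and -0.27 (-1.03 to 0.48), with limma adjusted p-values of 0.9998. Another probe set, 1457929_at, was above background in 1 of 8 samples and was not tested.

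Rb1 itself, the pocket protein gene on which the CDK inhibitors converge, lay higher in the expansion of all 4 mice. Probe set 1417850_at read 2309 and 1452 in mouse 1, 1606 and 1241 in mouse 2, 2765 and 2273 in mouse 3, and 2014 and 1247 in mouse 4. The differences of 0.67, 0.37, 0.28 and 0.69 on the log2 scale had the narrowest spread among the 3 probe sets that were higher in every pair, yet the ranges of the groups overlap because the mice differed in level. Their mean was 0.50 (95% interval -0.16 to 1.16, limma adjusted p = 0.9998), and 0.45 in the alpha4-low pairs (-0.42 to 1.31, limma adjusted p = 0.989). The dim probe set 1444400_at was above background in 5 of 8 samples and was not tested.

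The 3 alpha4-low expansions were also set against the alpha4-high one, each relative to its partner. Differences between the subclasses, alpha4-low minus alpha4-high, were 0.18 for Cdkn1a (95% interval -2.03 to 2.38), 0.42 for Cdkn1b (-1.53 to 2.37), 1.10 for Cdkn2b (-2.10 to 4.29), -0.47 for Cdkn2c (-2.25 to 1.31) and -0.74 for Cdkn2d (-2.50 to 1.02). For Rb1 the value was -0.22 (-1.95 to 1.51), for the Mdm2 probe sets -0.25 and -0.36, and for the Ccng1 probe sets 0.50, -0.52 and 0.50. All 11 limma adjusted p-values were 0.9997. With 1 alpha4-high clone every one of these 11 intervals reached beyond 1 log2 unit in at least 1 direction, so a difference of that size was not detectable.

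The wider pathways were counted with 1 probe set per gene. Like the members, these lists were chosen with earlier results of these data known, so their shares are descriptions. No gene of the 6 lists passed the adjusted threshold in any of the 3 comparisons. Among the RB and E2F pathway genes, 23 of 25 were tested and 13 had a positive mean in the alpha4-low pairs, where 44.5% of all tested probe sets did, with a median of 0.06 on the log2 scale against -0.07 for all tested probe sets. At an unadjusted limma p under 0.05, which 5.11% of all tested probe sets reached, they held 2 higher and none lower. Over all pairs, where 3.25% did, 3 were higher and 1 lower. The lower gene was Cdk6, a kinase bound by the INK4 inhibitors. It differed by -0.96, -1.26, -0.03 and -0.75 in mice 1 to 4 (limma adjusted p = 0.9998 over all pairs). Ccne2, a cyclin that activates CDK2, differed by 0.61, 1.0, 0.99 and 1.06 in mice 1 to 4 (limma adjusted p = 0.939 in the alpha4-low pairs), and E2f1, an activating E2F factor, by 0.44, 0.61, 0.81 and 1.69 (limma adjusted p = 0.963). Both lay higher in every expansion. The repressor E2f8 was higher in mice 1 to 3, by 1.30, 1.22 and 2.17, but at -0.59 in mouse 4 (limma adjusted p = 0.967). The D cyclin gene Ccnd2 differed by -0.63, 0.17, 1.58 and 0.13 in mice 1 to 4. Its alpha4-low mean of 0.63 (limma adjusted p = 0.970) thus rested mainly on mouse 3.

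Among p53 target genes, 20 of 25 were tested, 9 had a positive mean in the alpha4-low pairs (44.5% of all tested probe sets) and the median was -0.05, with none higher and 1 lower at an unadjusted limma p under 0.05 (5.11% of all). Over all pairs no gene of the list reached that p. The gene that was lower was Perp, a p53-induced membrane protein gene. Its signals were 4002 in expansion 1 and 589 in polyclonal sample 1, 72.7 and 532 in mouse 2, 51.4 and 1123 in mouse 3, and 116 and 194 in mouse 4. The alpha4-high expansion was therefore the brightest sample and the alpha4-low expansions the 3 dimmest. The value of expansion 3 was below the background of its array, 61.9, so the size of the difference in mouse 3, and of the means that include it, is not well measured. The mean over the alpha4-low pairs was -2.61 in log2 units (SE 0.58, limma adjusted p = 0.289) and the difference between subclasses was -5.37 (SE 1.15, limma adjusted p = 0.134). Without mouse 4 that difference was -6.31 and the alpha4-low mean was -3.56, and without mouse 3 they were -4.51 and -1.76. Without mouse 2 they were -5.28 and -2.52. Whether Perp passed the adjusted threshold depended on which mouse was left out. These fits leave fewer residual degrees of freedom than the main one. Their p-values rest largely on the variance shared across probe sets and are not given. With sort purity as a covariate the alpha4-low mean was -0.54 (limma adjusted p = 1) and the difference -2.56 (limma adjusted p = 0.9998). The receptor genes Eda2r and Tnfrsf10b and the AKT inhibitor gene Phlda3 had means of 1.21, 1.23 and 1.10 in the alpha4-low pairs, with limma adjusted p-values of 0.970 to 0.975, but each rested mainly on 1 pair with a partner below background. Those pairs read 62.6 and 4.30 for Eda2r in mouse 4, 107 and 9.11 for Tnfrsf10b in mouse 3, and 172 and 15.6 for Phlda3 in mouse 4. In mouse 2 the differences were -0.13, -0.10 and -0.61.

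Of the regulators of p53, 15 of 18 were tested, 7 had a positive mean in the alpha4-low pairs (44.5% of all tested probe sets) and the median was -0.08, with 1 higher and none lower at an unadjusted limma p under 0.05 (5.11% of all). Over all pairs 1 was higher and 2, Atm and Mdm4, were lower at that p (3.25% of all). Chek1, a DNA damage checkpoint kinase, differed by 0.54, 2.30, 2.44 and 0.30 in mice 1 to 4 (limma adjusted p = 0.741), again largest in mice 2 and 3. Atm, the kinase that signals DNA breaks to p53, stood at -1.29, 0.17, -1.05 and -1.79 (limma adjusted p = 0.966). Mdm4, a p53 inhibitor related to Mdm2, stood at -1.15, -0.29, -1.69 and -0.38 (limma adjusted p = 0.967), and Trp53bp1 had a mean of 0.58 (limma adjusted p = 0.970).

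Of the genes that repress or activate the INK4 locus, 11 of 15 were tested, 6 had a positive mean in the alpha4-low pairs (44.5% of all tested probe sets) and the median was 0.08, with none higher and 2 lower at an unadjusted limma p under 0.05 (5.11% of all). Over all pairs none reached that p. Cbx7, a Polycomb protein that silences the locus, differed by 0.10, -1.56, -0.80 and -0.64 in mice 1 to 4 (limma adjusted p = 0.955). Id3, an inhibitor of E proteins, differed by 1.51, -1.68, -2.27 and -0.15 (limma adjusted p = 0.966), with 5 of its 8 values above background. Both were below the partner in all 3 alpha4-low expansions and above it in the alpha4-high one. The Polycomb genes Bmi1 and Rnf2 both had a mean of -0.39 (limma adjusted p = 0.989). Of 21 genes of senescence and its secretory programme, 8 were bright enough to test, 5 had a positive mean in the alpha4-low pairs (44.5% of all tested probe sets), the median was 0.07 and none reached an unadjusted limma p under 0.05. Means were -0.60 for Igfbp5, 0.57 for Cxcl2 and 0.52 for Il1b, with limma adjusted p-values of 0.989, and -0.34 for Tgfb1 (0.996).

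Most proliferation genes lay higher by value in expansions 1 to 3, but not in expansion 4, whose array the scanner records set apart. Of all tested probe sets, 53.8, 40.2, 50.3 and 50.3% were higher in the expansion of mice 1 to 4. Of 19 genes, 15, 14 and 16 were higher than in the partner in mice 1 to 3, and 8 in mouse 4. In mouse 4, 11 were lower, Mki67 (4582 against 4658), Ccna2 (443 against 834) and Cdk1 (174 against 311) among them. On each array 17 to 19 of these genes were above background. The summed signal of 19 of them was 67872 to 76795 in the expansions and 41212 to 60444 in the polyclonal samples, with no overlap. Much of that sum was Pcna, which did overlap, at 15209 to 35321 and 12999 to 30040. In mouse 4 Pcna was lower in the expansion (25312 against 27850). In mouse 4 the higher sum came with the bright genes Mcm4 (14954 against 5778) and Mcm6 (12750 against 4955). Of 18 tested, 16 had a positive mean in the alpha4-low pairs, where 44.5% of all tested probe sets did, the median was 0.57 against -0.07 for all tested probe sets, and 4 were higher and none lower at an unadjusted limma p under 0.05, against 5.11% of the whole table in either direction. Over all pairs 6 were higher and none lower at that limma p, against 3.25% of the whole table. Cdc6, which licenses replication origins, differed by 0.82, 2.43, 1.28 and 0.60 in mice 1 to 4 (limma adjusted p = 0.778), and the spindle checkpoint kinase gene Bub1 by 0.82, 1.47, 1.58 and 0.71 (limma adjusted p = 0.855). The helicase subunit gene Mcm6 stood at 0.28, 0.47, 0.88 and 1.36 (limma adjusted p = 0.939), and the topoisomerase gene Top2a at 0.82, 1.19, 0.99 and 0.63 (limma adjusted p = 0.955). These 4, named for the smallest p-values in the alpha4-low pairs, were higher in each expansion. The part of cycling cells and of myeloid and NK cells in the values of the CDK inhibitors was not tested. Sort purity was entered as a covariate for all 11 tested members. None passed the adjusted threshold with or without it, so that count does not test the part of sort purity.

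**Figure D3:**
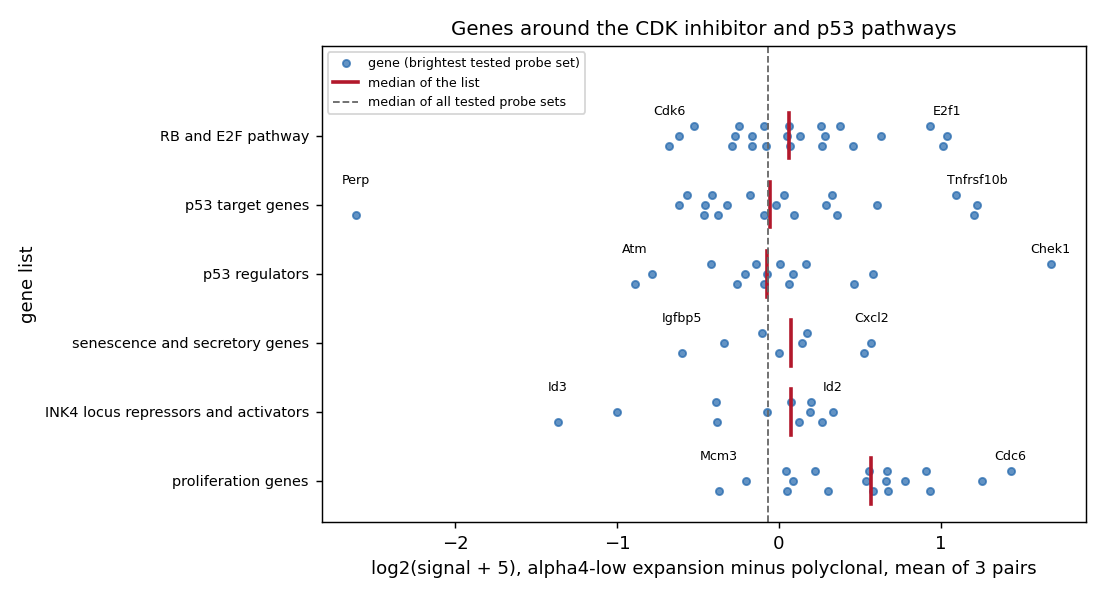
Mean difference of log2(signal + 5) between alpha4-low expansions and polyclonal partners (3 pairs) for each tested gene of 6 lists, with the median of a list as a red line and that of all tested probe sets, -0.07, as a dashed line. The median of the proliferation genes is 0.57 and those of the other lists lie between -0.08 and 0.08.

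The members differed in how much they varied. After Cdkn2b, the SD over the 8 arrays on the log2 scale was 0.76 for Cdkn1a, 0.49 for Cdkn1b, 0.44 for Rb1, 0.34 for Ccng1, 0.32 for Mdm2, 0.31 for Cdkn2c and 0.29 for Cdkn2d, with the brightest tested probe set of each gene. Among 10406 genes, the patterns most like that of Cdkn1a over the 8 arrays were those of Pitpnb, Lrch4 and P4htm, with Pearson correlations of 0.971, 0.963 and 0.956. Those most like Cdkn2b were Dyrk1a, Dlat and Cenpp, at 0.952, 0.947 and 0.944, and those most like Cdkn1b were Zxdb, A630072M18Rik and Dok2, at 0.915, 0.897 and 0.892. These are descriptions over 8 arrays that share 4 mice, picked as the highest of many, and no p-value was computed for them.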

How the data were processed

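RNA from 8 sorted samples was hybridised to Affymetrix Mouse Genome 430 2.0 arrays. The deposited values are linear intensity values per probe set, which the authors made with MAS5 (so named in the submitters' processing notes, without a version). The scaling was left as deposited, and scaling to a common mean hides changes in total RNA per cell. Scanner records set the array of expansion 4 apart from the other 7.

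Values were taken as log2(signal + 5), so differences of dim probe sets are understated. The 64 controls and probe sets with a mean log2 value at or below the median were left out, so that the dimmest tested probe sets had a signal near 45.3. Under R 4.3.3, limma 3.58.1 fitted linear models by lmFit and eBayes (trend over intensity), taking the mouse as a block, since the design pairs samples by animal. Deviations correlated within mice at 0.374, 0.0771, 0.214 and 0.338. Expansions 1 and 4 correlated best with their own partner, but expansion 2 did so with polyclonal sample 4 and expansion 3 with polyclonal sample 2. The pairing thus rests on the sample titles. The fit over all pairs left 3 residual degrees of freedom, and that with separate subclasses left 2. Sort purity as a covariate, or leaving out mouse 2, 3 or 4, left fewer in each. Two-sided p-values were adjusted by Benjamini-Hochberg, with a threshold of 0.05. The method was tested on simulated data with independent normal noise. The outcome is not given here, and no statement on the members rests on it.

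The annotation names 1 gene for 34958 probe sets, several for 932 and none for 9211. Members and lists were chosen with earlier results of these data known. Named list genes are up to 4 per list with the smallest p in the alpha4-low pairs, and Cdk6 was named for its p over all pairs. For likeness, the 3 members of largest SD were used. A background level was set for each array from unspiked control probe sets after the data had been examined. Alternatives covered the pseudocount, filter, normalization, variance model, block, sort purity and leaving out each pair. Some sample descriptions number expansions 3 and 4 otherwise than their titles, and the titles were used.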

Additional observations from a re-analysis of the deposited data

How the results depend on the processing

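No member passed the adjusted threshold under any alternative, and of 456 member values 430 kept their direction and side of the threshold. The values that turned ranged from -1.55 to 0.18 (log2 scale), and only some were close to 0. Quantile normalization gave 0.00239 for Cdkn2d in the alpha4-low pairs. Median centring gave differences between subclasses of 0.030 for Rb1 and 0.0049 for Mdm2 1423605_a_at, and shifted the median of all probe sets there from -0.10 to 0.15. No replicate block gave, in the alpha4-low pairs, -0.18 for Cdkn1b and -0.020 for Ccng1 1450016_at, and, as differences between subclasses, -0.16 and -0.10 for Ccng1 1420827_a_at and 1450017_at, -0.32 for Cdkn1b and -0.42 for Cdkn2b. Sort purity as covariate with the replicate block gave 0.13 for Cdkn1b over all pairs; 0.031 for Cdkn2d, -0.63 for Cdkn2b and -0.23 for Ccng1 1450016_at in the alpha4-low pairs; and differences of 0.11 for Rb1, -0.74 for Cdkn1a and -1.55 for Cdkn2b. Mice 1 and 4 alone, chosen after seeing the data, gave 0.18 for Cdkn1b and -0.070 for Cdkn2b. Of the members, 4 were higher and 2 lower in both of these mice, and the matching shares of all probe sets were not counted. The cause of the turned values was not tested.

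Leaving out each mouse in turn gave -0.16 to 0.21 for Cdkn2d and -0.39 to 0.18 for Cdkn1b over all pairs, -0.30 to 0.020 for Cdkn2d and -0.37 to 0.48 for Cdkn1b in the alpha4-low pairs, and -0.019 to 0.54 for the Cdkn1a difference between subclasses. The members higher in every remaining pair numbered 3 to 5, and those lower 0 to 1. These counts are over 3 pairs, where more probe sets share a direction than over 4. Over the alpha4-low pairs, which remain without mouse 1, 9.99% of all tested probe sets were higher and 15% lower. The shares without mice 2, 3 or 4 were not counted. Cdkn1a over all pairs stayed positive, at 0.82 to 1.19. Its unadjusted limma p was 0.0666, 0.103 and 0.147 without mice 1, 2 and 3, and 0.0417 without mouse 4. With no filter on low values that p was 0.0769, with no replicate block 0.0665, and with sort purity as a covariate 0.240. It stayed under 0.05 with the other pseudocounts, normalizations and variance models. Cdkn2b ranged from 0.37 to 1.52 over all pairs and from 0.44 to 2.17 in the alpha4-low pairs. A pseudocount of 32 gave 0.56 and 0.68 for Cdkn2b. Over all alternatives the calls in the whole table ranged from 0 to 20 over all pairs, 0 to 148 in the alpha4-low pairs and 0 to 266 for the difference, against 0, 12 and 12 as reported. Perp also passed for the difference with the filter at a higher signal (adjusted p = 0.0222), median centring (0.0496) and no replicate block (0.0196). For the difference between subclasses, leaving out mouse 1 was not possible, since it holds the only alpha4-high clone. Under the stricter filter Cdkn1a and Cdkn2b were too dim to be tested.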
